A study of Mus musculus with 36 samples.

Results

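The 7 genes described here encode receptors and adhesion molecules of leucocyte traffic. They are the chemokine receptors Cxcr4, Ccr2, Ccr7 and Cxcr3, the selectin ligand Selplg (PSGL-1), the hyaluronan receptor Cd44 and the sphingosine 1-phosphate receptor S1pr1. They were matched by symbol to the 55414 gene identifiers of the deposited tables, and all 7 were found (Cxcr4 ENSMUSG00000045382, Ccr2 ENSMUSG00000049103, Ccr7 ENSMUSG00000037944, Cxcr3 ENSMUSG00000050232, Selplg ENSMUSG00000048163, Cd44 ENSMUSG00000005087 and S1pr1 ENSMUSG00000045092, on chromosomes 1, 9, 11, X, 5, 2 and 3). The study modelled infant mixed lineage leukaemia in mice that carry the Kmt2a-AFF1 fusion, the product of a translocation that joins the histone methyltransferase gene Kmt2a to AFF1. Stem and progenitor cells were sorted from bone marrow (BM) and, in leukaemic mice, from the central nervous system (CNS), and their total RNA was sequenced in 36 libraries. The questions were how the cells differ by niche and by cell type.

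The libraries formed 9 groups of 4. In the leukaemia arm the Kmt2a-AFF1+ cells overexpressed miR-130b by the sample labels (the design text names miR-130a), and the 12 mice had reached terminal leukaemia. From every one of them came a BM and a CNS library of the same sorted type, so there were 12 CNS-BM pairs, 4 per type. In the control arm the Kmt2a-AFF1+ cells overexpressed a scrambled microRNA, the 4 mice were not leukaemic, and each gave all 3 types from BM only. The fusion was therefore carried by both arms, and neither arm is wild type. The gates were HSC/MPP (lineage-negative, c-Kit+, Sca-1+, Flt3-, HSC below), LMPP (lineage-negative, c-Kit+, Sca-1+, Flt3+) and LK/CLP (lineage-negative, c-Kit+, Sca-1-, LK below). How the fusion and the microRNAs were introduced, which cells expressed them, the strain and the age of the mice could not be learned from the sources used here.

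Chemokine receptors are G protein-coupled receptors that steer cells along gradients of small secreted proteins. CXCR4 binds CXCL12 and keeps haematopoietic stem and progenitor cells in the marrow, and CCR2, CCR7 and CXCR3 bind ligands made in inflamed tissue or, for CCR7, in lymphoid organs. PSGL-1 and CD44 carry glycans that let cells roll on the P- and E-selectins of vessel walls, and CD44 also anchors cells to hyaluronan. S1P receptor 1 draws cells out of tissues towards the sphingosine 1-phosphate in blood and lymph.

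Cxcr4, Cd44 and Cxcr3 are shown with the sequence before their start sites, because Cxcr4 and Cd44 differed most widely between control cell types and Cxcr3 between leukaemic ones. The sequences are the RefSeq promoters of GRCm38.p6, all on the minus strand and written 5′ to 3′, at chr1:128592300-128592549 (Cxcr4), chr2:102901666-102901915 (Cd44) and chrX:101734270-101734397 (Cxcr3). Those of Cxcr4 and Cd44 are the 250 bases before the start. That of Cxcr3 was cut to 128 bases, because the rest of its 250 lies inside the gene as annotated by GENCODE M21. Capitals mark matches on either strand to 5 motifs: the GC box GGGCGG, RUNX TGTGGT, PU.1 GAGGAA, the TATA box TATAAA and AP-1 TGAGTCA. Of the 7 genes 4 matched an entry of the RefSeq table.
Cxcr4: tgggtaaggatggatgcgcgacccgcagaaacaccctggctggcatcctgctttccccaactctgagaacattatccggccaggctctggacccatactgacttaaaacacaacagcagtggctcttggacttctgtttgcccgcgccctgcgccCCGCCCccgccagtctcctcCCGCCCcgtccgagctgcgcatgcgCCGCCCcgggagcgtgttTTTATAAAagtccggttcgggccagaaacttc
Cd44: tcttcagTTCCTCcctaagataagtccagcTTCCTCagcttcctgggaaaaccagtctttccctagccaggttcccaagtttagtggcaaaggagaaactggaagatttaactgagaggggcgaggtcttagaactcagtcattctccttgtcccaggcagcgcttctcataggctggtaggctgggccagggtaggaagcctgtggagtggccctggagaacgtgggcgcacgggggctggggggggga
Cxcr3: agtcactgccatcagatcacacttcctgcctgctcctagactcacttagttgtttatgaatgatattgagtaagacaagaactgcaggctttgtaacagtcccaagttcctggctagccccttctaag
The Cxcr4 promoter held 3 GC boxes and 2 overlapping matches to TATAAA, 1 on each strand. The Cd44 promoter held 2 matches to the PU.1 motif, and the shorter Cxcr3 stretch of 128 bases held none of the 5. Of 32851 RefSeq promoters, 32.74% held a GC box, 14.05% the RUNX motif, 23.25% the PU.1 motif, 12.37% TATAAA and 4.463% the AP-1 motif, counted over the 250 bases before each start. Promoters of Ccr2, Ccr7, Selplg and S1pr1 are not shown.

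Libraries held 1909638 to 30442297 counts. A background was measured from 1514 odorant, vomeronasal and taste receptor genes, as their counts per kb of exon. Applied to all exons, it came to 0.454 to 27.7% of a library's counts and was highest in control HSC (21.6 to 27.7%) and control LMPP (14.2 to 27.0%), against 6.51 to 12.4% in control LK. A gene was taken as above background in a library where its count passed 3 times the background expected for its exon length plus 10 counts. Levels below are CPM (counts per 1000000 counts), set between libraries by edgeR's trimmed mean (TMM) over the 17217 genes above background in at least 4 libraries. Of the sort genes, Ly6a (Sca-1) averaged 21.7 to 41.1 CPM in the 4 leukaemia HSC and LMPP groups against 2.65 and 2.54 CPM in leukaemia LK. Flt3 averaged 519 and 574 CPM in leukaemia LMPP against 72.6 and 74.7 CPM in leukaemia HSC. Ptprc, the pan-leucocyte antigen CD45, was above background in none of the 4 control HSC libraries, in 2 of the 4 control LMPP libraries and in every other library. Leukaemia CNS HSC 1 stood apart, with 2521 CPM summed over 15 microglia markers against 165 to 279 in the other 3 of its group, and leukaemia BM LMPP 3 was the shallowest library at 1909638 counts. Results that rest on either are given with and without them.

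In the leukaemia libraries Selplg, Cxcr4, Cd44 and Ccr2 stood well over background, Cxcr3 passed its limit mainly in LMPP and LK (7 of 8 libraries each, against 2 of 8 in HSC), and Ccr7 and S1pr1 were close to it. Cxcr4 was above background in 24 of 24 leukaemia and 9 of 12 control libraries, Selplg in 24 of 24 leukaemia and 11 of 12 control libraries, Cd44 in 24 of 24 leukaemia and 6 of 12 control libraries, Ccr2 in 23 of 24 leukaemia and 4 of 12 control libraries, Cxcr3 in 16 of 24 leukaemia and 0 of 12 control libraries, Ccr7 in 5 of 24 leukaemia and 1 of 12 control libraries and S1pr1 in 1 of 24 leukaemia and 1 of 12 control libraries. Per kb of exon, the median level over the 24 leukaemia libraries was 74.7 CPM per kb for Selplg, 52.3 for Cxcr4, 22.5 for Cd44, 13.2 for Ccr2, 3.72 for Cxcr3, 1.27 for Ccr7 and 0.697 for S1pr1. Over the 12 control libraries it was 14.4 CPM per kb for Selplg, 12.5 for Cxcr4, 7.77 for Cd44, 4.29 for Ccr7, 4.09 for Ccr2, 2.68 for Cxcr3 and 2.54 for S1pr1. The median count over background in the leukaemia arm was 137 for Selplg, 111 for Cxcr4, 34.8 for Cd44, 29.5 for Ccr2, 12.7 for Cxcr3, 2.68 for Ccr7 and 1.48 for S1pr1. In the control arm Ccr7, Cxcr3 and S1pr1 did not pass the background limit in 11, 12 and 11 of 12 libraries, so their control levels hold background as well as the genes' own RNA.

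**Figure D1:**
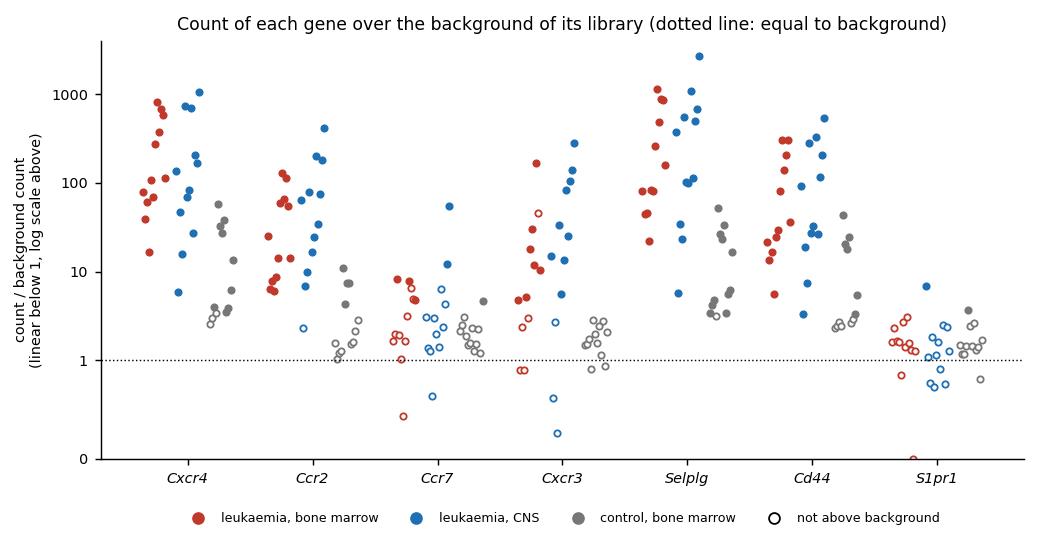
Count of each gene divided by the count expected from background, on a log axis, with 1 point per library (24 leukaemia, 12 control) and a dotted line at 1. Selplg and Cxcr4 lie highest in the leukaemia libraries, with medians of 137 and 111, while Ccr7 and S1pr1 lie near the line, with medians of 2.68 and 1.48.

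Cxcr4, the CXCL12 receptor, was measured at 142, 93.8, 165 and 126 CPM in the 4 leukaemia BM LK libraries, in the order of replicates 1 to 4, and at 133, 95.2, 109 and 120.1 CPM in CNS LK from the same mice. The values were 114, 166, 86.7 and 104 CPM in BM LMPP, 39.4, 110.3, 64.6 and 81.4 CPM in CNS LMPP, 108, 54.3, 89.7 and 69.0 CPM in BM HSC and 86.3, 29.7, 83.8 and 65.7 CPM in CNS HSC. The leukaemia means ran from 132 ± 30.1 (SD, n = 4) in BM LK through 118 in BM LMPP, 114 in CNS LK, 80.3 in BM HSC and 73.9 in CNS LMPP to 66.4 ± 26.1 in CNS HSC, and every neighbour in that order overlapped. Control libraries held 56.4, 50.1, 49.2 and 50.8 CPM in LK, 18.0, 17.2, 27.2 and 36.3 CPM in LMPP and 11.8, 13.5, 15.8 and 13.7 CPM in HSC. These 3 control ranges did not overlap, and all 12 leukaemia BM libraries were above the control libraries of their own type. How many of all genes are separated in this way was not counted, for Cxcr4 or for the genes below.

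Ccr2, the receptor for CCL2 and a mark of monocytes, was highest in CNS LMPP, at 186, 152, 264 and 120.3 CPM, where the BM LMPP libraries of the same mice held 76.0, 105, 30.2 and 48.8 CPM. CNS HSC libraries held 153, 42.8, 45.7 and 155 CPM and BM HSC 127, 33.5, 42.8 and 93.5 CPM, and CNS LK held 53.4, 84.9, 120.2 and 132 CPM and BM LK 42.7, 72.3, 134 and 74.5 CPM. The lowest CNS LMPP library was thus above the highest BM LMPP library, while the niches overlapped in HSC and LK. By mean the order was CNS LMPP (181 ± 61.6), CNS HSC, CNS LK, BM LK, BM HSC and BM LMPP (65.1 ± 32.8, SD, n = 4), and again every neighbour overlapped. In controls Ccr2 was at 39.7, 24.7, 50.03 and 37.3 CPM in LK, 29.3, 26.6, 35.4 and 28.7 CPM in LMPP and 26.5, 17.3, 18.2 and 19.2 CPM in HSC, with LK and LMPP overlapping and HSC below LMPP.

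Ccr7, the receptor for CCL19 and CCL21, was low in the leukaemia arm. Its highest leukaemia values were in BM HSC (2.45, 3.01, 13.2 and 8.72 CPM) and a single CNS HSC library (2.15, 7.63, 2.46 and 2.90 CPM), and the lowest in BM LK (1.48, 0.644, 1.11 and 0.528 CPM). Means in the other leukaemia groups were 4.04 CPM in CNS LMPP, 2.49 in BM LMPP and 1.70 in CNS LK, and all neighbours in the order overlapped. Control libraries held 10.8, 12.1, 13.3 and 8.23 CPM in HSC, 8.72, 10.9, 5.89 and 13.7 CPM in LMPP and 1.58, 2.62, 4.59 and 1.85 CPM in LK, and only 1 of these 12 passed the background limit.

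Cxcr3, the receptor for CXCL9, CXCL10 and CXCL11 known from effector T cells and some dendritic cells, was highest in CNS LMPP at 35.0, 54.5, 52.9 and 21.1 CPM. The BM LMPP libraries of those mice held 3.49, 39.8, 6.36 and 9.15 CPM, and 1 of them, replicate 2, was within the CNS range. CNS LK held 5.87, 7.41, 16.9 and 13.9 CPM and BM LK 6.502, 3.86, 10.5 and 4.49 CPM, whereas CNS HSC held 9.28, 2.96, 4.56 and 1.07 CPM and BM HSC 6.20, 1.20, 3.35 and 3.59 CPM. The order of means was CNS LMPP (40.9 ± 15.9, SD, n = 4), BM LMPP (14.7 ± 16.9), CNS LK, BM LK, CNS HSC and BM HSC (3.59 ± 2.05), with overlap between all neighbours, but the CNS LMPP range did not overlap that of any HSC or LK group. Control means were 6.63 CPM in LMPP, 5.77 in HSC and 2.85 in LK, none of them from a library above the background limit.

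Selplg, the gene of PSGL-1, had the highest level per kb of the 7 genes. It was at 394, 637, 620.2 and 497 CPM in CNS LMPP and 350.3, 507, 302 and 349 CPM in BM LMPP, at 237, 336, 301 and 446 CPM in CNS LK and 255, 259, 373 and 409.7 CPM in BM LK. HSC spread most, with 562, 68.7, 145 and 231 CPM in CNS and 259, 145, 158 and 217 CPM in BM. The highest of these was leukaemia CNS HSC 1, the library rich in microglia markers, and without it the CNS HSC range was 68.7 to 231 CPM. By mean the order was CNS LMPP (537 ± 114, SD, n = 4), BM LMPP, CNS LK, BM LK, CNS HSC and BM HSC (195 ± 53.3), with overlap between all neighbours. Controls held 121, 94.6, 99.99 and 104 CPM in LK, 42.2, 57.7, 65.0 and 104 CPM in LMPP and 36.6, 45.0, 45.5 and 30.2 CPM in HSC, all below every leukaemia BM library of their type.

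Cd44, the hyaluronan receptor, was at 146, 234, 299 and 157 CPM in CNS LMPP, 189, 140.3, 159 and 213 CPM in CNS LK and 222, 62.0, 125 and 116 CPM in CNS HSC. The BM libraries held 163, 187, 166 and 126 CPM in LMPP, 119.9, 148, 186 and 177 CPM in LK and 109, 70.3, 90.9 and 87.0 CPM in HSC. The lowest mean in leukaemia was that of BM HSC (89.4 ± 16.1, SD, n = 4) and the highest that of CNS LMPP (209 ± 71.5), with overlap between neighbours throughout. In controls Cd44 was at 157, 117, 122 and 123 CPM in LK, 50.6, 47.5, 55.5 and 54.8 CPM in LMPP and 39.8, 41.1, 40.1 and 37.2 CPM in HSC. The 3 control ranges were separate, LK overlapped leukaemia LK, and the control HSC counts were only 2.32 to 2.68 times background.

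S1pr1, the egress receptor, had the lowest level per kb of the 7 in leukaemia. Its values were 7.53, 9.19, 2.28 and 12.99 CPM in CNS HSC and 3.68, 5.42, 4.08 and 11.2 CPM in BM HSC. LMPP held 0.805, 0.534, 0 and 1.97 CPM in BM and 6.20, 0.692, 1.57 and 0.167 CPM in CNS, and LK averaged 2.57 CPM in BM and 1.66 CPM in CNS. Control means were 9.49 CPM in HSC, 8.87 in LMPP and 5.63 in LK, where the HSC and LMPP ranges overlapped, as did those of LMPP and LK, and HSC (7.89 to 11.4 CPM) lay above LK (4.44 to 6.20 CPM) without overlap. A single library in each arm was above the background limit, and the gene was left out of every test restricted to genes above background.

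**Figure D2:**
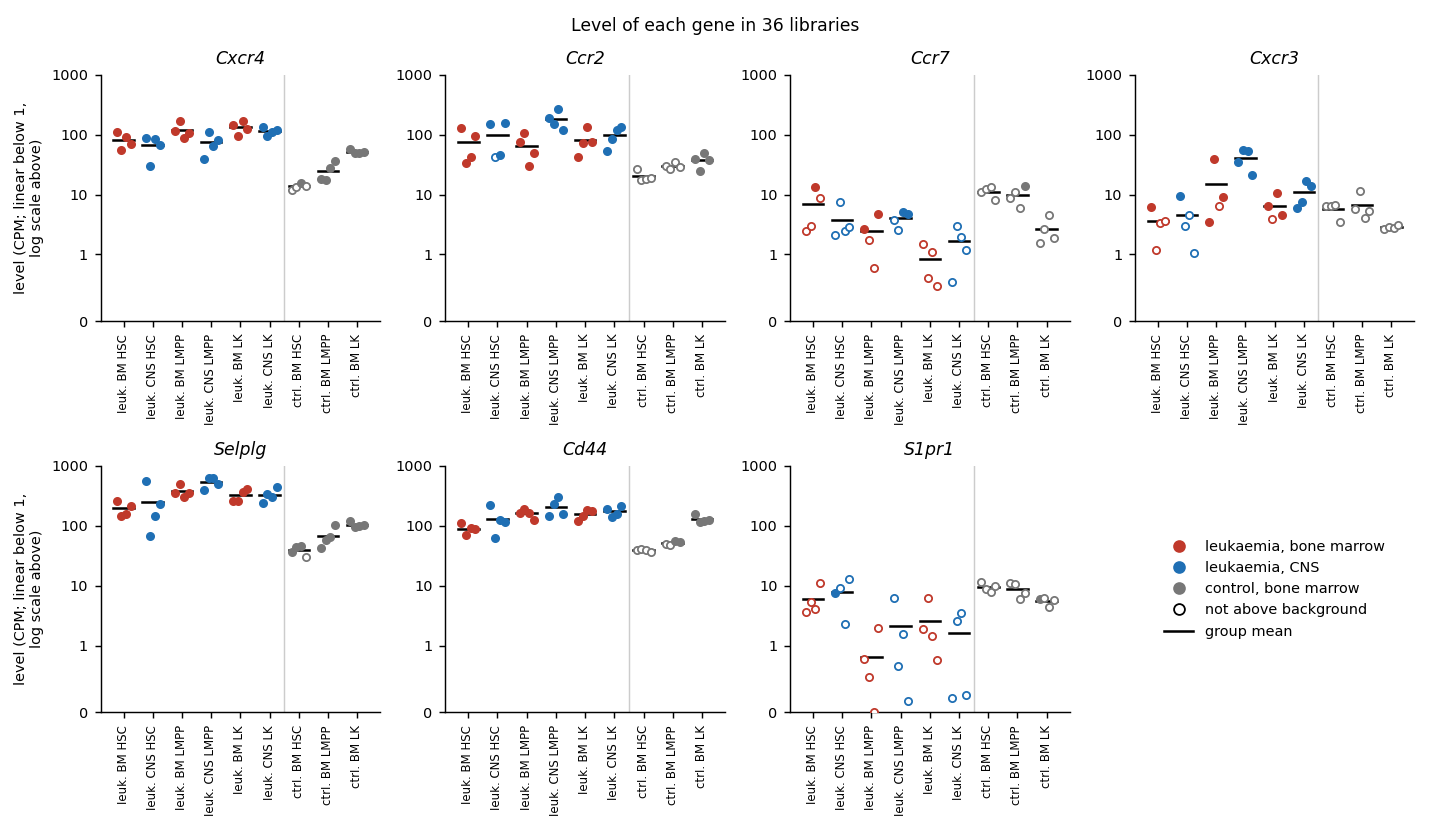
Level of each gene (CPM, on an axis that is linear near 0 and logarithmic above) in all 36 libraries, by group, with 1 point per library and a bar at the group mean; open points are libraries in which the gene was not above background. Cxcr4 and Selplg lie higher in each leukaemia BM group than in its control, and Ccr2 and Cxcr3 are highest in CNS LMPP, with means of 181 and 40.9 CPM.

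The first comparison set CNS against BM cells within the leukaemia arm. In each of the 3 cell types the mean levels of Ccr2 and Cxcr3 were higher in CNS and that of Cxcr4 was lower, and averaged over the types Ccr2 and Cxcr4 passed only in a test that paired the libraries of a mouse and was limited to genes above background. In HSC, a fit without a term for the mouse put both Ccr2 and Cxcr3 at 0.48 log2, CNS minus BM. Without the microglia-rich CNS HSC 1 it gave -0.36 for Ccr2 and -0.69 for Cxcr3. That fit kept the BM library of the same mouse, the highest of BM HSC for both genes (127 and 6.20 CPM). Within HSC mice 2, 3 and 4 the log2 ratios of CNS to BM were 0.35, 0.09 and 0.73 for Ccr2, all above 0. For Cxcr3 they were 1.02, 0.39 and -1.38. In edgeR's quasi-likelihood test on all 40332 genes, without a term for the mouse, none of the 7 passed an adjusted p of 0.05, as none of all genes did (0%). At an unadjusted p under 0.05 there were 794 genes, among them Ccr2 (0.74 ± 0.34 log2, CNS minus BM, ± SE) and Cxcr3 (0.93 ± 0.41), and DESeq2 called 79 genes (0.575%) and none of the 7. Cxcr4 was at -0.33 ± 0.30, Selplg at 0.42 ± 0.35, Cd44 at 0.45 ± 0.31, S1pr1 at 0.19 ± 0.47 and Ccr7 at 0.08 ± 0.35 log2.

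Each mouse gave both libraries, and with the mouse as a block on the 15851 genes above background edgeR called 420 genes (2.65%) and 2 of the 6 members tested. Ccr2 rose in CNS by 0.70 ± 0.16 log2 (95% interval 0.39 to 1.00, edgeR adjusted p = 0.0307, higher in 11 of 12 mice). Cxcr4 fell, at -0.43 ± 0.11 log2 (95% interval -0.64 to -0.22, edgeR adjusted p = 0.048, lower in 11 of 12 mice). Higher calls were 1.79% and lower calls 0.864% of the genes tested. The other 4 did not pass: Cxcr3 was at 0.95 ± 0.28 log2 (edgeR adjusted p = 0.098, higher in 10 of 12 mice), Cd44 at 0.29 ± 0.11 (adjusted p = 0.248, 8 of 12), Selplg at 0.16 ± 0.15 (adjusted p = 0.795, 8 of 12) and Ccr7 at 0.20 ± 0.39 (adjusted p = 0.932, 7 of 12). In bulk libraries such as these, fewer cells of a type and less RNA per cell cannot be told apart.

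Both calls sat near the threshold. Without the mice of leukaemia CNS HSC 1 and leukaemia BM LMPP 3 (0.445% of genes called), neither passed: Ccr2 was at 0.58 ± 0.12 log2 (edgeR adjusted p = 0.0548) and Cxcr4 at -0.45 ± 0.12 (edgeR adjusted p = 0.134). Leaving out 1 mouse at a time kept both directions and gave edgeR adjusted p values of 0.0102 to 0.0817 for Ccr2, which missed the threshold without HSC mouse 1 or 3, LMPP mouse 1 or LK mouse 2, 3 or 4. For Cxcr4 they were 0.0321 to 0.128, with the call kept only without HSC mouse 4, LMPP mouse 4 or LK mouse 1. Without HSC mouse 4 or LMPP mouse 2 Cxcr3 passed, at edgeR adjusted p values of 0.0359 and 0.0473.

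The pairs showed where the differences lay. For Ccr2 the log2 ratio of CNS to BM, with 0.5 CPM added to both, was 1.29, 0.53, 3.10 and 1.29 in the 4 LMPP mice, 0.27, 0.35, 0.09 and 0.73 in the HSC mice and 0.32, 0.23, -0.15 and 0.82 in the LK mice. Only LK mouse 3 was below 0, and the highest ratio came from LMPP mouse 3, whose BM library was the shallowest. For Cxcr4 the ratios were -1.53, -0.58, -0.42 and -0.36 in LMPP, -0.33, -0.86, -0.10 and -0.07 in HSC and -0.09, 0.02, -0.60 and -0.06 in LK, with LMPP mouse 1 lowest and 5 of the 8 other types' mice between -0.10 and 0.02. For Cxcr3 they were 3.15, 0.45, 2.96 and 1.16 in LMPP, 0.55, 1.02, 0.39 and -1.38 in HSC and -0.14, 0.86, 0.66 and 1.53 in LK, and HSC mouse 4 and LK mouse 1 were the only pairs lower in CNS.

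Selplg gave log2 ratios of 0.17, 0.33, 1.04 and 0.51 in LMPP, all above 0, against 1.12, -1.07, -0.12 and 0.09 in HSC and -0.11, 0.38, -0.31 and 0.12 in LK, on both sides of 0. Cd44 gave -0.16, 0.32, 0.84 and 0.31 in LMPP, 1.02, -0.18, 0.45 and 0.41 in HSC and 0.65, -0.08, -0.22 and 0.26 in LK. HSC mouse 1, with the microglia-rich CNS library, gave the highest ratio of both genes.

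**Figure D3:**
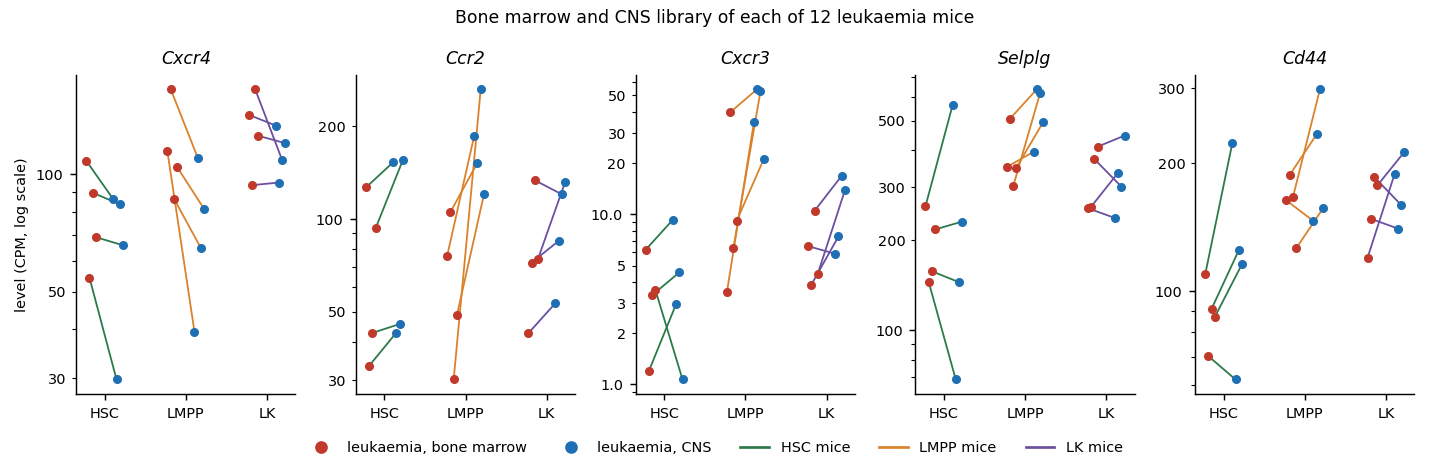
Level in BM and CNS (CPM, log axis) for Cxcr4, Ccr2, Cxcr3, Selplg and Cd44, with a line for each of the 12 mice by sorted type. Ccr2 is higher in CNS in 11 of 12 mice and Cxcr4 lower in 11 of 12; the lines of LMPP mouse 3 for Ccr2 and LMPP mouse 1 for Cxcr4 are the steepest of their panels.

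Within LMPP alone the paired fit called 322 genes (2.03%, 1.68% higher), and 1 of the 6 members tested. Ccr2 was 1.43 ± 0.28 log2 higher in CNS LMPP (95% interval 0.88 to 1.98, edgeR adjusted p = 0.0221, 4 of 4 mice). Cxcr3 at 1.86 ± 0.49 (edgeR adjusted p = 0.0637, higher in 4 of 4), Cxcr4 at -0.76 ± 0.19 (adjusted p = 0.054, lower in 4 of 4) and Selplg at 0.47 ± 0.26 (adjusted p = 0.521, higher in 4 of 4) did not pass. Without the mice of the 2 libraries in doubt Ccr2 was at 1.03 ± 0.21 log2 (edgeR adjusted p = 0.122), and it also lost the call without LMPP mouse 1 alone (adjusted p = 0.123) or LMPP mouse 3 alone (adjusted p = 0.119). Without a mouse term edgeR called no gene in LMPP (0%), and DESeq2 called 9 genes and no member. Ccr2 and Cxcr3 were the 2 members at an unadjusted edgeR p under 0.05 (0.0233 and 0.0465), among 684 of all 40332 genes.

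In HSC and LK no member passed in edgeR with or without the mouse term, nor in DESeq2, and none had an unadjusted p under 0.05 without the mouse term. All genes gave 0% called in HSC, and 0% without and 0.00631% with the mouse term on genes above background in LK. Whether the niche difference itself varied with the cell type was tested by an interaction term, which called no gene (0%), so the larger Ccr2 and Cxcr3 differences in LMPP are not shown to differ from those in HSC and LK. Their interaction had edgeR adjusted p values of 1.00 and 1.00 in the paired fit.

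Dendritic cell markers were higher in CNS, as were Ccr2 and Cxcr3, in all 4 LMPP mice, and less regularly in the other types. The summed level of 12 of them (Xcr1, Clec9a, Wdfy4, Batf3, Cd209a, Itgax, Zbtb46, Siglech, Ccr9, Bst2, Fscn1 and Ccl22) went from BM to CNS from 1108 to 3209, 3764 to 4793, 1476 to 4334 and 1405 to 2616 CPM in LMPP mice 1 to 4, higher in CNS in 4 of 4. Over all 12 mice the sum and Ccr2 changed in the same direction in 8, and the sum and Cxcr3 in 11. Both counts include HSC mouse 1, with the microglia-rich CNS library, and Siglech stands in the microglia list as well. How many of all genes follow the sum as often was not counted. For Ccr2 the sum was lower in CNS while the gene was higher in HSC mice 2 (598 to 448 CPM of markers) and 4 (402 to 367) and in LK mouse 1 (1014 to 946), and the reverse held in LK mouse 3 (1299.7 to 1639). The sums ran from 402 to 1012 CPM in BM HSC, 367 to 1620.5 in CNS HSC, 1108 to 3764 in BM LMPP, 2616 to 4793 in CNS LMPP, 810.0 to 1299.7 in BM LK and 946 to 1639 in CNS LK, and from 322 to 348, 346 to 622 and 284 to 325 in control HSC, LMPP and LK. Of the 12, 11 were above background in some CNS LMPP library and 10 in some BM LMPP library, and none was at 0 in a whole group. Paired, 3 of the 10 tested rose in CNS over the 3 types and 4 of 10 in LMPP, among them Xcr1, at 2.35 ± 0.46 log2 (edgeR adjusted p = 0.0221). Their part in the Ccr2 and Cxcr3 results was not tested.

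The 10 monocyte markers, of cells that carry much Ccr2, summed to 236 to 868 CPM in BM LMPP and 262 to 498 CPM in CNS LMPP, and none of the 8 tested passed in either paired contrast. Their sums were 483 to 1026 and 371 to 1553 CPM in BM and CNS HSC, 711 to 1066 and 606 to 1251 in BM and CNS LK, and 240.2 to 253, 175 to 254 and 423 to 527 in control HSC, LMPP and LK. Among 8 border macrophage markers 2 rose over the 3 types (Apoe and Pf4), as did 1 of 15 microglia markers (C1qb), and 2 of 12 mature neutrophil markers fell (Camp and Ltf). The border macrophage sums were 108 to 453, 35.0 to 347 and 327 to 539 CPM in leukaemia BM HSC, LMPP and LK, 191 to 1435, 192 to 464 and 278 to 726 in CNS and 141 to 162, 116 to 145 and 291 to 329 in control BM. The microglia sums were 79.0 to 221, 98.6 to 247 and 95.3 to 148 CPM in leukaemia BM HSC, LMPP and LK, 165 to 2521, 116 to 461 and 57.9 to 141 in CNS and 196 to 209, 147 to 226 and 66.1 to 92.7 in control BM. The mature neutrophil sums were 592 to 1568, 50.3 to 4664 and 673 to 12294 CPM in leukaemia BM HSC, LMPP and LK, 154 to 1544, 51.3 to 79.9 and 239 to 1848 in CNS and 171 to 212, 159 to 240.5 and 113 to 127 in control BM, with leukaemia BM LMPP 1 and BM LK 2 and 3 far above the rest of their groups. All 8, all 15 and all 12 of these genes were above background in some library and none was at 0 in a whole group, and their part in the results was not tested.

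**Figure D4:**
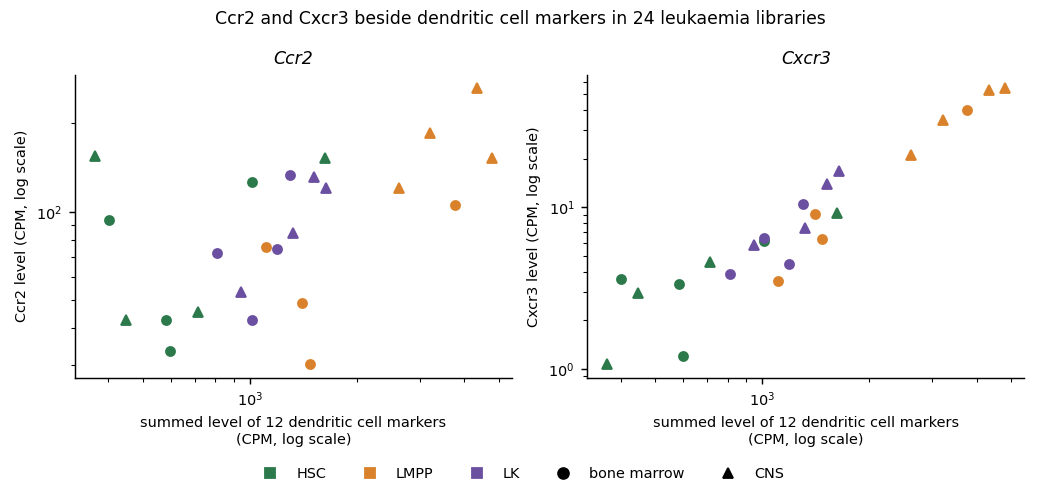
Level of Ccr2 and of Cxcr3 (CPM) against the summed level of 12 dendritic cell markers (CPM) in the 24 leukaemia libraries, by sorted type and niche. The 4 CNS LMPP libraries, at 2616 to 4793 CPM of markers, hold the highest Cxcr3 values but for BM LMPP 2, at 39.8 CPM of Cxcr3 and 3764 CPM of markers.

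Of the genes around these receptors, few differed by niche. Among 19 other chemokine receptors 8 were tested in the paired fit and 2 rose in CNS, among them Xcr1 (1.44 ± 0.27 log2, edgeR adjusted p = 0.0143), a dendritic cell receptor. The median of the 8 was 0.04 against 0.00 over all genes tested. None of the 4 tested of 11 chemokine ligands passed. Of 20 selectins and genes of selectin ligand synthesis 19 were tested and 1 rose, B4galt5 (0.53 ± 0.10, edgeR adjusted p = 0.0143), a galactosyltransferase, with a median of 0.01. Of 20 genes of CD44 partners and hyaluronan 13 were tested and 1 rose, Cd74 (1.46 ± 0.23, edgeR adjusted p = 0.00526), the invariant chain and MIF receptor, with a median of 0.02.

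In the sphingosine 1-phosphate pathway 10 of 14 genes were tested and 1 rose, Klf2 (1.15 ± 0.18 log2, edgeR adjusted p = 0.00573), a transcription factor that drives S1pr1 in lymphocytes; the median was 0.13. Of 22 G proteins, receptor kinases, arrestins and RGS genes 21 were tested and 3 rose, with a median of 0.02. They were Rgs10 (0.91 ± 0.19, edgeR adjusted p = 0.0213), Dpp4 (0.48 ± 0.11), a protease that cleaves CXCL12, and Arrb1 (0.39 ± 0.10), an arrestin. No gene of the 6 lists fell. The lists were drawn up around the 7 genes, and these counts stand beside 2.65% of all genes called.

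The second comparison set the sorted types against each other. In leukaemia BM, edgeR called none of the 7 between any of the 3 pairs of types, on all genes (0% in each) or on genes above background (0.0315% for HSC minus LK, 0.00631% for LMPP minus LK and 0.0694% for HSC minus LMPP), and DESeq2 called none. At an unadjusted p under 0.05 there were 3 members for HSC minus LK (Cxcr4, Ccr7 and Cd44), 1 for LMPP minus LK (Ccr7) and 5 for HSC minus LMPP (Cxcr4, Cxcr3, Selplg, Cd44 and S1pr1). Of all 40332 genes tested, 2354, 975 and 6785 were under it, in that order. The 5 for HSC minus LMPP had an edgeR adjusted p of 0.295 each, the lowest among the 3 pairs of types, and those of the other 2 pairs were 0.689 or above. Ccr7 in HSC minus LK was at 2.37 ± 0.65 log2 (edgeR adjusted p = 0.689).

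In leukaemia CNS, Cxcr3 was lower in HSC than in LMPP, just short of the threshold on all genes. On all genes (0.0595% called) it was at -3.59 ± 0.76 log2 (edgeR adjusted p = 0.0508), and on genes above background (13% called, 7.41% lower) at -3.12 ± 0.66. Cxcr3 entered the latter set mainly through LMPP and LK. In CNS HSC it was above background in 1 of 4 libraries, at 0.27 to 15.1 times background. Its value on that set is given as a description, without its p. On all genes Cxcr3 passed without any one of leukaemia CNS HSC 1, CNS LMPP 1 or 4, BM HSC 4, BM LMPP 1 or 2 and BM LK 2, at edgeR adjusted p values of 0.00122 to 0.0494. DESeq2 (21% called) also called Selplg, at -1.13 (DESeq2 adjusted p = 0.0395). Without the 2 libraries in doubt (15.4% called), which here means without the microglia-rich CNS HSC 1, edgeR called 4 members lower in HSC: Cxcr3 at -4.76 ± 0.82 (adjusted p = 0.00152), Selplg at -2.88 ± 0.58 (adjusted p = 0.00348), Cd44 at -2.03 ± 0.53 (adjusted p = 0.0136) and Ccr2 at -2.27 ± 0.60 (adjusted p = 0.0138). On genes above background and without them (34.5% called) Ccr2 did not pass, and Selplg and Cd44 did, at -1.76 and -0.96 log2. Cxcr3 was at -3.72 there, again as a description.

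Between CNS HSC and CNS LK edgeR called no gene with all libraries (0%). An unadjusted p under 0.05 was reached by 3 members (Cxcr4, Cxcr3 and S1pr1) and by 5429 of all 40332 genes. Neither DESeq2 (8.24% of genes) nor edgeR on genes above background (7.99%) called a member. Without the 2 libraries in doubt (12.7% called) 4 were lower in HSC. They were Selplg at -2.14 ± 0.56 log2 (edgeR adjusted p = 0.0199), Cxcr3 at -2.80 ± 0.75 (adjusted p = 0.0213), Cd44 at -1.76 ± 0.53 (adjusted p = 0.0298) and Cxcr4 at -1.84 ± 0.56 (adjusted p = 0.0308). On genes above background these 4 were at -1.10, -1.87, -0.74 and -0.88, in that order (27.2% of genes called), all nearer 0. Between CNS LMPP and CNS LK no member passed in edgeR (0.00496% of genes) or DESeq2 (2.59%). Ccr7 and Cxcr3 were at an unadjusted p under 0.05, as were 1083 of all 40332 genes.

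In control BM Cxcr4 and Cd44 were lowest in HSC and highest in LK, and Selplg and Ccr2 were lower in HSC than in LK. For HSC minus LK, edgeR called 5 of the 7 on all genes (44.7% called, 25% lower and 19.7% higher). Cxcr4 was at -3.14 ± 0.28 log2 (edgeR adjusted p = 6.81e-11), Cd44 at -2.96 ± 0.27, Selplg at -2.65 ± 0.31 and Ccr2 at -2.11 ± 0.24, all lower in HSC, and Ccr7 was higher at 0.92 ± 0.29 (adjusted p = 0.00903) with 1 of 12 libraries above background. Background was higher in HSC than in LK, and on the 11155 genes above background (70.5% called, 33.7% lower) the differences were smaller, with Cxcr4 at -1.49 ± 0.17 (edgeR adjusted p = 4.98e-07), Cd44 at -1.29 ± 0.11, Selplg at -0.98 ± 0.17 and Ccr2 at -0.49 ± 0.20. The split of all calls moved with the scaling as well, from 8207 higher and 10392 lower to 4100 higher and 3760 lower on genes above background, and to 5356 higher and 10748 lower with median ratio scaling. Cxcr4 and Selplg held with the mouse as a block on genes above background. Ccr2 was above background in none of the control HSC or LMPP libraries, with HSC counts of 1.03 to 1.55 times background, and entered the set of genes above background through the 4 LK libraries, where it was highest. Its value there is given as a description, without its p. Cd44 too was above background in none of the 4 control HSC libraries (2.32 to 2.68 times background), in 2 of 4 LMPP and in 4 of 4 LK. Its value on that set is likewise a description. Cxcr4 was above background in 1 of 4 control HSC libraries.

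For LMPP minus LK edgeR called the same 5 on all genes (39.8% called, 24.5% lower and 15.3% higher), with Cd44 at -2.48 ± 0.27 log2, Cxcr4 at -2.17 ± 0.26, Selplg at -1.75 ± 0.30 and Ccr2 at -1.47 ± 0.23 lower in LMPP and Ccr7 at 0.82 ± 0.28 higher (edgeR adjusted p = 0.0203). Among genes above background (66.3% called, 31.6% lower) Cxcr4 (-0.73 ± 0.16, edgeR adjusted p = 0.00055) still passed, and Selplg at -0.31 ± 0.16 (adjusted p = 0.102) did not. Cd44 at -0.97 ± 0.11 and Ccr2 at -0.01 ± 0.19 are descriptions, as both reached the limit of 4 libraries through LK. The Ccr7 call was lost without control LMPP 4 (adjusted p = 0.135), LK 1 (0.0706) or LK 4 (0.0741).

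For HSC minus LMPP edgeR called none of the 7 on all genes (0.183% called), and DESeq2 called none. Cxcr4, Ccr2 and Selplg had an unadjusted p under 0.05 in edgeR, as did 2998 of all 41609 genes. Among genes above background (2.23% called, 1.69% lower) Cxcr4 was lower in HSC, at -0.77 ± 0.17 log2 (edgeR adjusted p = 0.0312), and with the mouse as a block it no longer passed (adjusted p = 0.0594). Without control LMPP 1 Cxcr4 passed on all genes, at an adjusted p of 0.0341.

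The third comparison set leukaemia BM against control BM, type by type. Cxcr4 and Selplg were higher in leukaemia in all 3 types, Ccr2 and Cd44 in HSC and LMPP, and the differences of Cxcr4, Selplg and Cd44 were smallest in LK. Without leukaemia BM LMPP 3, the library in doubt in these fits, the same members passed as with it in each comparison on all genes (63.9% called over the 3 types, 22.2% in HSC, 58.1% in LMPP and 4.31% in LK). The arms differ in disease, in microRNA and in the table and mice they come from, and these cannot be told apart. Background was higher in the control arm, and the median of all genes lay at -0.58 log2 on all genes, at -1.37 with median ratio scaling (7027 higher and 28779 lower calls, against 11809 and 16455) and at 0.02 on the 15275 genes above background (5455 and 5224), so values are given on all genes and on genes above background.

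Averaged over the 3 types, 6 of the 7 passed on all genes (65% called, 27.2% higher and 37.8% lower), and 5 of 6 tested on genes above background (69.9%, 35.7% higher and 34.2% lower). The 5 include Ccr2, which entered that set through leukaemia BM (12 of 12 libraries) and control LK (4 of 4), so its value there is a description. Among the receptors, Cxcr4 was 3.03 ± 0.25 on all genes and 1.96 ± 0.14 on genes above background (leukaemia minus control, log2 ± SE, edgeR adjusted p = 1.06e-12 and 1.19e-10). Ccr2 was 2.38 ± 0.26 on all genes (edgeR adjusted p = 1.06e-09) and 1.28 ± 0.22 on genes above background, the latter given without its p. Both were higher in leukaemia under every scaling, but Ccr2 was above background in none of the 8 control HSC and LMPP libraries, so its control level there holds background. Cxcr3 passed on all genes at 1.56 ± 0.32 (edgeR adjusted p = 6.68e-05) but not with median ratio scaling or DESeq2. Among genes above background, a set it entered through leukaemia alone (7 of 12 BM libraries against 0 of 12 control), it did not pass. Its value there, 0.45 ± 0.32, is a description. Ccr7 went the other way, at -0.39 ± 0.30 (edgeR adjusted p = 0.24) on all genes and -1.42 ± 0.30 (adjusted p = 0.000196) on genes above background, and it passed on all genes with median ratio scaling and in DESeq2 (-1.22 in both). Only 3 of 12 leukaemia BM and 1 of 12 control libraries had Ccr7 above background, so this difference too is one of counts near background. Of the libraries left out in turn, Ccr7 passed without leukaemia BM HSC 3 (edgeR adjusted p = 0.0361).

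Of the adhesion genes, Selplg was 3.10 ± 0.25 on all genes and 2.05 ± 0.14 on genes above background (edgeR adjusted p = 1.44e-12 and 1.1e-10), and Cd44 2.01 ± 0.21 on all genes and 0.94 ± 0.09 on genes above background (adjusted p = 3.75e-10 and 1.12e-08). Both were higher in leukaemia under every scaling. S1pr1 was lower at -0.74 ± 0.27 (edgeR adjusted p = 0.0174) on all genes, with 1 of 12 control libraries above background, so this difference is one of counts near background.

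By type, the ratio of mean levels of leukaemia to control was 5.85 in HSC, 4.77 in LMPP and 2.55 in LK for Cxcr4, and 4.95, 5.61 and 3.09 for Selplg. In all 3 types no leukaemia BM library overlapped a control library of its type for these 2 genes. How many of all genes show no such overlap, here or between the groups above, was not counted. On all genes edgeR called 21.4% in HSC, 62.8% in LMPP and 3.52% in LK. For Ccr2 the ratios were 3.65, 2.17 and 2.13, with no overlap in HSC only, and for Cd44 they were 2.26, 3.09 and 1.21, with no overlap in HSC and LMPP. For Cxcr3, leukaemia was above control without overlap in LK only (ratio 2.23). Leukaemia levels of Ccr7 in LMPP and LK and of S1pr1 in LMPP were below control without overlap, at counts near background. Dendritic marker sums, given above, were higher in leukaemia than in control BM without overlap in all 3 types, and monocyte and mature neutrophil marker sums in HSC and LK. Their part in these differences was not tested.

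In HSC, Cxcr4, Ccr2, Selplg and Cd44 were higher on all genes (21.4% called, 20.3% higher). On genes above background (48.1%, 27.5% higher) Cxcr4 and Selplg were higher too, at 2.44 and 2.20 log2. Ccr2 and Cd44 were at 1.76 and 1.07 log2 there, as a description. In control HSC these 2 were above background in 0 of 4 libraries, and Cxcr4 in 1 of 4. In LMPP 6 passed on all genes (62.8%, 26% higher and 36.8% lower), Cxcr4, Ccr2, Cxcr3, Selplg and Cd44 higher and S1pr1 lower. With background genes left out (64.7%, 32.7% higher and 32% lower) Cxcr4 was at 2.12 ± 0.24, Selplg at 2.36 ± 0.25 and Cd44 at 1.48 ± 0.16. Ccr7 was lower at -1.95 ± 0.51 (edgeR adjusted p = 0.00212). Cxcr3 did not pass there. Ccr2 at 1.01 ± 0.38 and Cxcr3 at 1.03 ± 0.56 are descriptions, as both were above background in 0 of 4 control LMPP libraries. Ccr7 was above background in 2 of 4 leukaemia BM LMPP and 1 of 4 control LMPP libraries.

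In LK, 3 were higher on all genes (3.52% called, 2.22% higher). Cxcr4 was at 1.70 ± 0.40 log2 (edgeR adjusted p = 0.00794), Selplg at 1.99 ± 0.42 (adjusted p = 0.00245) and Ccr2 at 1.49 ± 0.44 (adjusted p = 0.0478). With background genes left out (17.2%, 10% higher) Cxcr4 (1.33 ± 0.23) and Selplg (1.60 ± 0.24) still passed, and Ccr2 was at 1.06 ± 0.37 (adjusted p = 0.0525). Cd44 did not pass in LK, at 0.62 ± 0.35 (95% interval -0.07 to 1.32, edgeR adjusted p = 0.34). Without leukaemia BM LK 3 only Selplg passed, with Cxcr4 at an adjusted p of 0.0555 and Ccr2 at 0.286, and Ccr2 also missed the threshold without 11 other libraries, leukaemia BM LK 4, all 4 of control HSC, control LMPP 2 and 3 and all 4 of control LK, at 0.0556 to 0.186. Ccr2 in LK also missed it with median ratio scaling, without a count filter and in DESeq2 (adjusted p = 0.0795, 0.0534 and 0.0543).

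**Figure D5:**
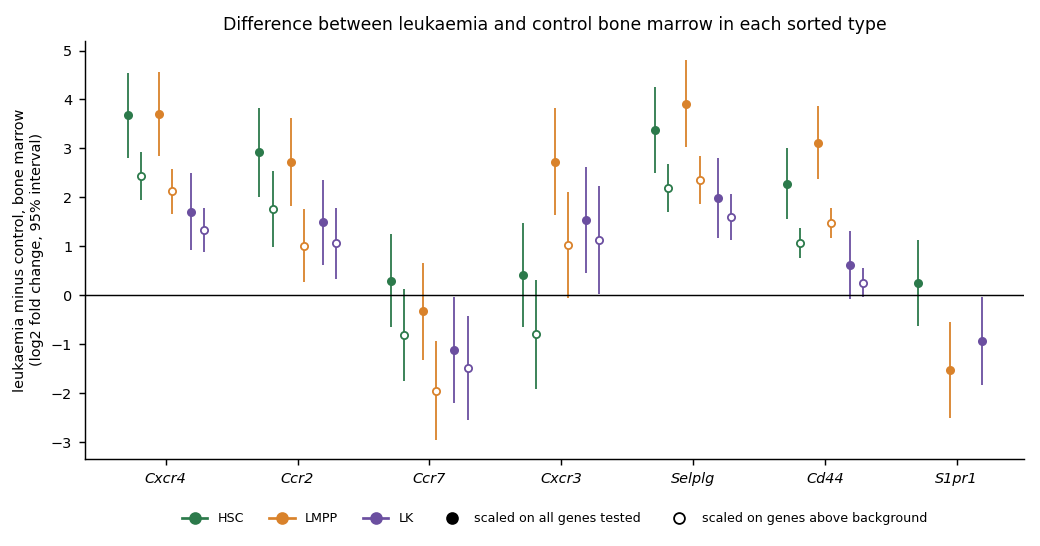
Leukaemia minus control BM difference (log2) of each gene by sorted type, with 95% intervals; filled points are scaled on all genes tested and open points on genes above background. Cxcr4 and Selplg lie above 0 in all 3 types on both scales, and Cd44 in LK has an interval that spans 0.

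The difference between arms varied with cell type for 3 members. In an interaction test of arm by cell type, chosen after the data had been seen (12.6% of genes called), Cd44 had an edgeR adjusted p of 0.00307, Cxcr4 of 0.0141 and Selplg of 0.0458. On genes above background (30.8%) Cd44 (0.00106) and Cxcr4 (0.0293) passed and Selplg did not (0.159, edgeR adjusted p values). In LK the mean levels in control and leukaemia BM were 129.9 and 158 CPM for Cd44 and 51.6 and 132 CPM for Cxcr4. Cd44 passed whichever library was left out, and Cxcr4 missed the threshold without leukaemia BM LK 2 or control LK 1, where Cd44 alone passed. Selplg passed without leukaemia BM HSC 4, BM LMPP 3, BM LMPP 4, BM LK 3, BM LK 4 or control LMPP 4 and missed it without any other. Cxcr3 passed without leukaemia BM HSC 1, BM LMPP 3 or BM LMPP 4, and S1pr1 without BM LMPP 4.

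The genes around the receptors differed widely between arms, as most genes did, and are given on genes above background with 69.9% of all genes called and a median of 0.02 log2. Of 18 tested of 20 selectins and genes of selectin ligand synthesis 12 were higher and 3 lower, with a median of 0.58. Selp (P-selectin) was higher at 2.04 ± 0.22 log2 and Glg1, an E-selectin ligand, at 1.11 ± 0.12, and the tyrosylprotein sulfotransferase Tpst1 was lower at -0.83 ± 0.17. Of 21 tested of 22 G proteins, kinases, arrestins and RGS genes 17 were higher and 2 lower, with a median of 0.99, among them Gnai2 (1.50 ± 0.14), the inhibitory G protein of chemokine receptors, and Grk6 (1.31 ± 0.10), a receptor kinase. On all genes 17 of the 20 selectin genes and 20 of the 22 G protein and related genes were higher and 1 of each list lower.

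Of 12 tested of 20 CD44 partners and hyaluronan genes 6 were higher and 4 lower, among them the membrane linkers Msn (moesin, 1.46 ± 0.13) and Ezr (ezrin, 1.39 ± 0.15) and, lower, the protease Mmp14 (-2.61 ± 0.29). Of 11 tested of 14 sphingosine 1-phosphate genes 5 were higher and 5 lower. Klf2 was higher at 1.94 ± 0.30 and the exporter Spns2 at 1.22 ± 0.21, and the kinase Sphk1 at -3.32 ± 0.25 and the transporter Mfsd2b at -2.36 ± 0.31 were lower. Of 8 tested of 19 other chemokine receptors 2 were higher, Ccr1 (2.98 ± 0.16), a monocyte and neutrophil receptor, and Cx3cr1 (0.45 ± 0.19), and 3 lower, led by Ccrl2 (-1.38 ± 0.19). Of 3 tested of 11 ligands Mif was higher (0.41 ± 0.14) and Ccl21a (-2.01 ± 0.34) and Ccl19 (-1.80 ± 0.39), both ligands of CCR7, lower.

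As a description, the genes most like each member over the 24 leukaemia libraries were ranked by Pearson's r of log2 CPM among 11953 genes above background in at least 12 of them. The points share the scaling and the background of their library, and pairs share a mouse. Rcsd1 (0.943) and Mis18a (0.940) were among the 3 most like Cxcr4, and the 3 most like Ccr2 were Aif1 (0.945), Zfp516 (0.945) and Ralb (0.944). Cxcr3 was most like Batf3 (0.976), Mycl (0.973) and Slamf7 (0.970), of which Batf3 stands in the dendritic list above. Selplg was most like Unc93b1 (0.993), Ppp1r18 (0.986) and Stk10 (0.982), and Cd44 most like Cept1 (0.975), Ostf1 (0.975) and Vac14 (0.974). Ccr7 and S1pr1 were above background in too few libraries to be ranked.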

How the data were processed

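Total RNA of the 36 sorted samples was made into stranded libraries with the SMARTer Pico v3 kit, per the labels' protocols. The submitters' processing notes name DESeq2 and GRCm39, and no aligner, counter or strand setting could be learned from the labels. The authors deposited 1 table per arm, titled as normalised but holding whole numbers, with unequal totals, for 55414 genes. They were treated as raw counts, which no label states, and all CPM values and tests rest on that. Of these genes 52081 have a symbol and 52133 an exon length in GENCODE M21 (GRCm38, another build than the files).

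Counts were tested with edgeR 4.0.16 (R 4.3.3): TMM scaling, a filter of 10 counts or more in 4 or more libraries, quasi-likelihood tests, Benjamini-Hochberg adjustment over all genes tested, threshold 0.05. Leukaemia libraries, control libraries, and the BM libraries of both arms were fitted separately. Intervals of 95% are normal ones around the estimate. The mouse id of the labels pairs BM with CNS and the control types. Deviations from group means correlated at a median of 0.25 over 12 leukaemia pairs (-0.47 to 0.69) and -0.02 over 12 control pairs (-0.45 to 0.14).

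Alternatives were DESeq2 1.42.0, median ratio (RLE) scaling, no count filter, genes above background in at least 4 libraries, the mouse as a block, and leaving out each library. Added after the data were seen were fits without the 2 libraries in doubt, without each mouse, and the arm by cell type interaction, as was the CPM scale of the levels. All 7 genes were named in every comparison, and of 6 pathway lists (106 genes) up to 3 per comparison with the smallest p. The genes and lists were chosen with earlier results of these data known. The fits were tested on simulated counts. Promoters were read from RefSeq (GRCm38.p6). Values of some genes in these lists and rankings are not reported here.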

Additional observations from a re-analysis of the deposited data

Results flagged for a closer look

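In groups of 4 libraries, the highest or lowest was called far from the other 3 by Dixon's test at 95%, from its gap to the nearest over the group's range. Of 63 groups tested 4 met this, and chance does so in about 1 in 20. Ccr7 was at 7.63 CPM (49 counts) in leukaemia CNS HSC 2, against 2.15 to 2.90 CPM in the other 3. Cxcr3 was at 39.8 CPM in leukaemia BM LMPP 2, the BM LMPP library with the highest dendritic marker sum (3764 CPM), against 3.49 to 9.15 CPM. Cxcr3 was at 3.53 CPM (9 counts) in control HSC 4, against 6.44 to 6.57 CPM, all near background. Cd44 was at 157 CPM in control LK 1, against 117 to 123 CPM.

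The leukaemia minus control difference depended on the cell type by an interaction test for 3 genes. The edgeR adjusted p was 0.00307 for Cd44, 0.0141 for Cxcr4 and 0.0458 for Selplg. Selplg missed the threshold with median ratio scaling, in DESeq2 and on genes above background.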

How the results depend on the processing

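Of the single-gene differences recomputed under another test, scaling, filter or set of libraries, 371 kept direction and side of the threshold, 28 passed where they had not, 17 no longer passed and 9 changed sign. Any DESeq2 result left without an adjusted p was counted among the 371 where its sign agreed. Leaving out 1 library or mouse gave 1440, 24, 33 and 15. The mouse as a block together with genes above background took the members called from 0 to 2 for CNS minus BM (0% to 2.65% of all genes) and from 0 to 1 in LMPP (0% to 2.03%). For control LMPP minus LK it took them from 5 to 2 (39.8% to 64.2%), of which Cd44 is a description only. Without the mice of the 2 libraries in doubt both niche counts were 0 (0.445% and 0.00645%). The block alone called 30 genes and no member for the niche, where S1pr1 changed sign (-0.0821). On genes above background alone the counts were 2 for control LMPP minus LK (66.3% of all genes), again with Cd44 as a description. They were 1 for control HSC minus LMPP (2.23%) and 1 (Cxcr3, a description only, as said above) for CNS HSC minus LMPP (13%). The last was 1 with median ratio scaling (664 of all 40332 genes called) and 1 without a count filter (85 of 54187). It was 2 in DESeq2 (21% of all genes called), 4 without the 2 libraries in doubt (15.4%) and 3 on genes above background without them (34.5%). For CNS HSC minus LK the last 2 settings gave 4 (12.7%) and 4 (27.2%). On genes above background both of these counts include Cxcr3, as a description only. Without the 2 libraries in doubt the CNS minus BM mean was -0.0206 for Ccr7, -0.10 for Selplg and -0.0093 for S1pr1, and in HSC -0.36 for Ccr2 and -0.69 for Cxcr3 (-0.31 on genes above background). Cxcr4 in LK was 0.0893 without a count filter, and Ccr2 in control LMPP minus LK was 0.0272 with the block on genes above background. The cause of these changes was not tested.

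Leaving out 1 library gave CNS minus BM means of -0.0170 to 0.39 for Ccr7, -0.0515 to 0.55 for Selplg and -0.14 to 0.45 for S1pr1. In HSC it gave -0.79 to 0.0681 for Cxcr4, -0.36 to 1.12 for Ccr2 and -0.69 to 1.09 for Cxcr3. In LK it gave -0.26 to 0.11 for Cxcr4 and -0.0025 to 0.75 for Ccr2, and for Cxcr3 in leukaemia BM LMPP minus LK -0.0133 (without BM LMPP 2) to 1.81. Counts of members called ran from 0 to 4 for CNS HSC minus LK and CNS HSC minus LMPP, 0 to 1 for control HSC minus LMPP, 1 to 4 for leukaemia minus control LK, 1 to 5 for the arm by cell type interaction, and, leaving out a mouse, 0 to 3 for the paired niche fits over the 3 types and in LMPP. Ccr7 and S1pr1 passed the background limit in 6 and 2 of 36 libraries, and the part of depth in this was not tested.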
